A study of Homo sapiens with 6 samples.

Results

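The genes described here encode the matrix metalloproteinases (MMPs), the ADAM and ADAMTS proteases, the ADAMTS-like proteins (ADAMTSL) and the tissue inhibitors of metalloproteinases (TIMPs). They were taken from the gene table by their symbols alone, as MMP, ADAM, ADAMTS or ADAMTSL followed by a number (with a final A or B allowed for MMPs) and TIMP1 to TIMP4, which gave 74 of 36459 symbols. RNA was sequenced from PC9, a human non-small cell lung cancer (NSCLC) line whose growth depends on the EGFR kinase, in 3 parental libraries and 3 persister libraries. The parental cells came from 3 independent cultures without drug, and the persister cells were those present after 6 days in 15 µM of the EGFR inhibitor erlotinib, with 9 independent cultures pooled into the 3 libraries. Both conditions are therefore from a single line, and pooling evens out differences among persister cultures but not among parental ones. The libraries held between 29476725 and 34893782 gene counts each. In bulk RNA, a change in the number of cells that express a gene and a change in RNA per cell cannot be told apart.

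These proteases hold a zinc ion in their active site and cleave proteins outside or at the surface of the cell. Secreted MMPs and ADAMTS proteases act mainly on collagens, proteoglycans and other matrix proteins, while membrane-bound MMPs and ADAMs cut at the cell surface, where ADAM10 and ADAM17 release the outer parts of receptors and of growth factors, among them ligands of EGFR. Most are made as inactive precursors, and TIMPs bind and block the active enzymes. Some ADAMs and all ADAMTSL proteins lack the active site and act by binding other proteins.

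The zinc-binding stretch is the sequence that separates the proteases from their inactive relatives, so it was looked up in the coding transcripts of each gene. It was searched as 11 codons for histidine, glutamate, 2 free residues, histidine, 2 free residues, glycine, 2 free residues and histidine. Of 71 members with a coding transcript, 49 held it. These were 7 of 7 membrane-bound MMPs, 16 of 16 secreted MMPs, 12 of 12 ADAMs listed as catalytic, 0 of 8 ADAMs listed as non-catalytic, 14 of 19 ADAMTS proteases, 0 of 5 ADAMTSL genes and 0 of 4 TIMPs. The other 5 ADAMTS genes were ADAMTS1, ADAMTS4, ADAMTS8, ADAMTS9 and ADAMTS15, which matched when any residue was allowed in place of the glycine. With them 54 members held either form. This looser form was searched in the ADAMTS genes alone, so whether it separates the other classes was not tested. The stretch is shown for members on which the results below turn, from the GENCODE 44 annotation of GRCh38, 5′ to 3′ on the coding strand, with the codons of the 3 histidines and the glutamate in capitals.
MMP24: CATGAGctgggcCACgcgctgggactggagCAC
MMP14: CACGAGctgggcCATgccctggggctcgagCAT
MMP7: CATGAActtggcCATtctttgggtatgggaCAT
ADAM12: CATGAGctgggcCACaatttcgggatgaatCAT
ADAM17: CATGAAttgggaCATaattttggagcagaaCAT
ADAMTS12: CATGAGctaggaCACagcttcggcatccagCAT
ADAMTS15: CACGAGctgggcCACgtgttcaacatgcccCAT
ADAMTS9: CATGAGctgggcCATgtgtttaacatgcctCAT
The stretch lies in exon 5 of MMP24 at chr20:35263817-35263849 on the plus strand, in exon 5 of MMP14 at chr14:22843283-22843315 on the plus strand and in exon 5 of MMP7 at chr11:102523343-102523375 on the minus strand. It lies in exon 11 of ADAM12 at chr10:126094059-126094091 and in exon 11 of ADAM17 at chr2:9510078-9510110, both on the minus strand. In the 3 ADAMTS genes it is split by an intron, between exons 7 and 8 of ADAMTS12, exons 2 and 3 of ADAMTS15 and exons 8 and 9 of ADAMTS9.

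Of the 74 genes, 13 had a count of 0 in all 6 libraries and 15 more had too few counts to be tested, leaving 46. The test compared persister with parental libraries by edgeR's quasi-likelihood test across all 14626 genes that passed the filter, with a Benjamini-Hochberg adjusted p under 0.01 taken as changed. By this rule 29 of the 46 genes changed, of which 22 were higher and 7 lower in persister cells. Over all tested genes 56.8% changed, 28.7% being higher and 28.1% lower, against 63.0% changed, 47.8% higher and 15.2% lower among the 46. With a fold change above 2 also required, 15 genes remained, 13 higher and 2 lower, or 32.6% against 11.6% of all genes. The median log2 fold change was 0.44 over the 46 genes and −0.0061 over all tested genes. These counts describe the genes that passed the filter and not all 74, since MMP7 and MMP2 passed through the parental libraries alone, and ADAM21, ADAMTS4 and ADAMTSL2 were over the filter's limit in all 3 persister libraries but only in 2, 2 and 1 parental ones. The number of lower genes depended on single libraries, at 4 without parental replicate 2, parental replicate 3 or persister replicate 2, and 3 without persister replicate 1.

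Membrane-bound and secreted proteases were counted apart. Of 20 membrane-bound proteases, 16 were tested, 6 were higher (37.5%) and 2 lower (12.5%), with a median log2 fold change of 0.27. Of 35 secreted proteases, 18 were tested, 9 were higher (50.0%) and 4 lower (22.2%), with a median of 0.61. Over all tested genes, 28.7% were higher and 28.1% lower. A fold change above 2 was seen for 3 of the membrane-bound and 10 of the secreted proteases, and 8 of those 10 were ADAMTS genes that rose. That was 18.8% and 55.6% of those tested, beside 11.6% of all tested genes. Whether the shares differ between the 2 groups was not tested.

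**Figure D1:**
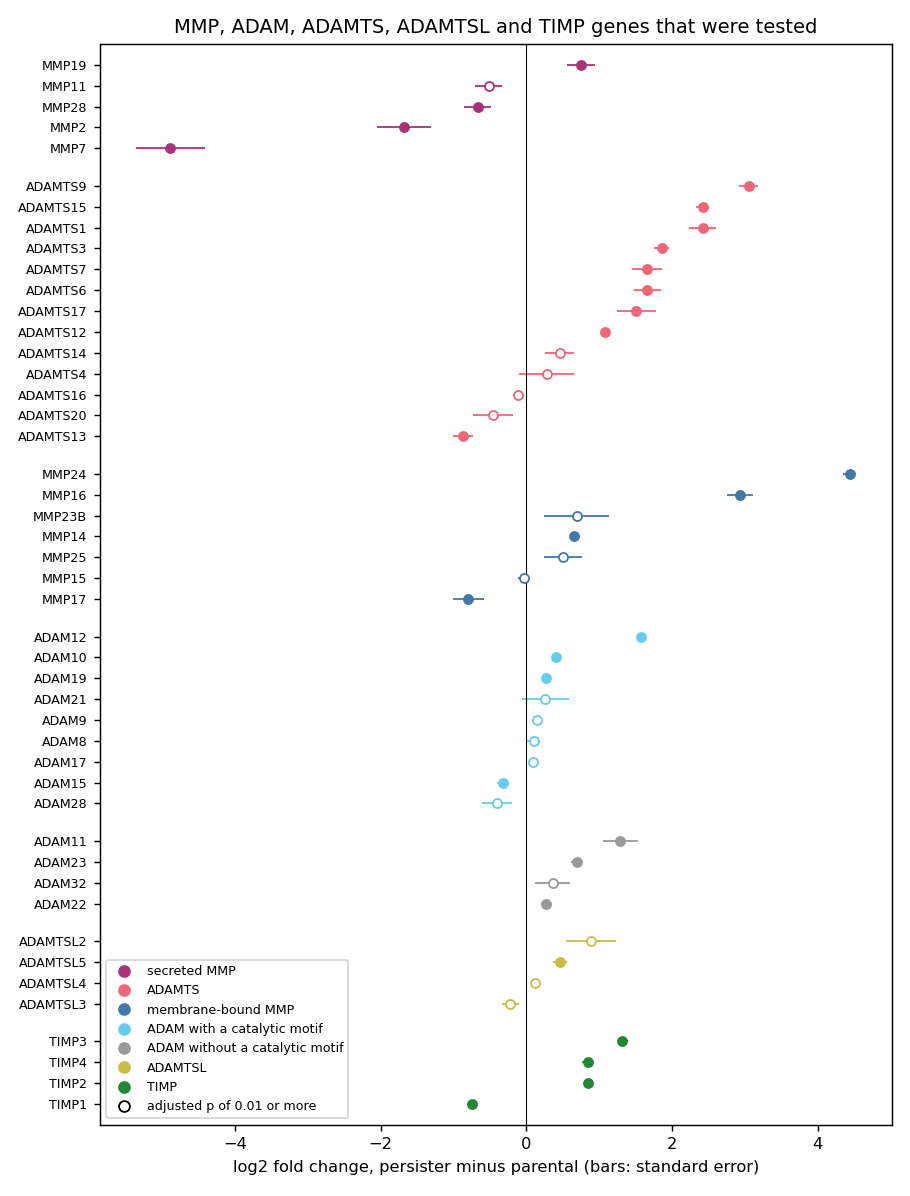
The log2 fold change of the 46 tested genes (x axis, persister minus parental, with its standard error as bars) is shown by class, with filled points for an adjusted p under 0.01. The ADAMTS genes extend to the right, MMP24 lies farthest right at 4.44 and MMP7 farthest left at −4.89.

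The membrane-bound MMPs included the largest rise among the 46 tested genes. MMP24, also called MT5-MMP and best known from neurons, where it cleaves cadherins and other surface proteins, had 1.1, 1.35 and 1.19 CPM (read counts scaled to the library size with TMM) in the parental libraries and 26.4, 25.4 and 27.3 CPM in the persister libraries. All persister values lay far above all parental ones, and the group means of 1.21 ± 0.126 and 26.4 ± 0.975 CPM (SD, n = 3) differed 21.7-fold, with a log2 fold change of 4.44 ± 0.0905 (SE) (adjusted p = 3.95e-11). The gene lies at chr20:35226690-35276998 on the plus strand, and the coding transcript MMP24-201 held 100% of its transcript counts. MMP24OS, a coding gene on the opposite strand that overlaps MMP24, had 1340 to 1643 counts per library and a log2 fold change of 0.06 (adjusted p = 0.41). Whether the libraries kept the strand is not given in the sources used here.

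MMP16 (MT3-MMP), which lies at chr8:88032011-88328025 and cleaves type III collagen and surface proteins, had 0.465, 0.382 and 0.386 CPM in parental and 3.15, 3.05 and 3.25 CPM in persister libraries. The groups were well apart at a low level, and the log2 fold change was 2.93 ± 0.183 with an adjusted p of 1.44e-07. MMP14 (MT1-MMP, chr14:22836560-22849041), the main membrane-bound collagenase and the activator of pro-MMP2, had 35.2, 40.1 and 38.5 CPM in parental and 56.4, 61.2 and 60.8 CPM in persister libraries. It was higher in all 3 persister libraries, with means of 37.9 ± 2.47 and 59.5 ± 2.67 CPM, a log2 fold change of 0.65 ± 0.0566 (adjusted p = 1.98e-06).

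MMP15 (MT2-MMP) stood at the same length-scaled level as MMP14 in parental cells, 22.1 TPM for each (counts divided by transcript length and scaled to a fixed sum per library), but did not pass the test. Its values were 38.8, 47.8 and 45.2 CPM in parental and 39.7, 44.9 and 43.5 CPM in persister libraries. The persister values all fell inside the parental range, and the log2 fold change of −0.04 ± 0.0753 did not pass the test (adjusted p = 0.654). MMP17 (MT4-MMP), which is held in the membrane by a lipid anchor, was lower, at 1.63, 2.79 and 2.38 CPM in parental and 1.34, 1.24 and 1.32 CPM in persister libraries, with a log2 fold change of −0.80 ± 0.214 (adjusted p = 0.00638). The parental libraries were spread widely and their lowest value was close to the persister ones. This call was lost with limma-voom (−0.76) and without parental replicate 2 (−0.62), parental replicate 3 (−0.77) or persister replicate 1 (−0.82), 2 (−0.77) or 3 (−0.81). MMP23B and MMP25 were tested and did not change, with log2 fold changes of 0.69 and 0.50, and MMP23A, annotated as a pseudogene and counted here among the membrane-bound MMPs as a near copy of MMP23B, had a count of 0 throughout.

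Per transcript length, in TPM, the 8 membrane-bound MMPs summed to 47.6 ± 5.0 TPM in parental and 74.2 ± 1.37 TPM in persister libraries. MMP14 held 46.5% of the parental and 48.6% of the persister sum, MMP15 46.3% and 30.0%, and MMP24 1.19% and 17.2%. Library by library, MMP24 held 1.20%, 1.22% and 1.14% of the class in parental and 18.1%, 16.2% and 17.4% in persister cells.

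**Figure D2:**
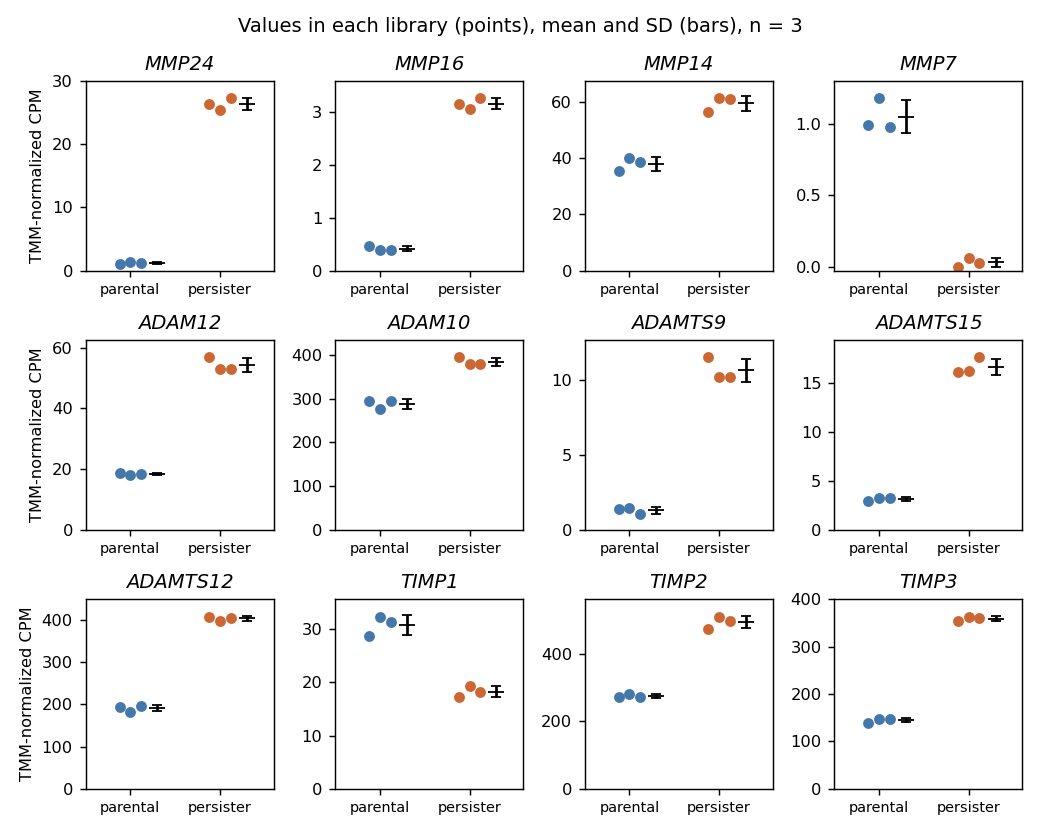
Each panel gives the TMM-normalized CPM (y axis) of a gene in the 3 parental and 3 persister libraries as points, with the mean and SD as bars. All 12 genes are ones that changed by the test, so that their groups do not overlap is no separate result. MMP7 and TIMP1 are the panels in which the persister points are the lower ones.

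Among the ADAMs with a catalytic motif, 9 of 12 were tested, 3 were higher and 1 lower, with a median log2 fold change of 0.14. Those were 33.3% higher and 11.1% lower, beside 28.7% and 28.1% of all tested genes. The largest change was in ADAM12, a protease found in developing muscle, placenta and many tumours that can shed EGFR ligands, at chr10:126012381-126388477 on the minus strand. It had 18.7, 18 and 18.2 CPM in parental and 56.8, 52.9 and 53.0 CPM in persister libraries. The persister libraries were all about equally high, with means of 18.3 ± 0.339 and 54.3 ± 2.23 CPM, a log2 fold change of 1.57 ± 0.0499 (adjusted p = 7.96e-10).

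ADAM12 is made in a long form that spans the membrane and a short form that is secreted, and the transcript counts separated them. ADAM12-202, with the coding length of the long form (2727 bases), had 546, 559 and 543 counts in parental and 1524, 1524 and 1649 in persister libraries, and was higher by a log2 fold change of 1.59 (adjusted p = 5.13e-05 over transcripts). ADAM12-201, with the coding length of the short form (2214 bases), had 48, 18 and 22 counts in parental and 22, 4 and 22 in persister libraries. Its share of the ADAM12 counts was 4.67% in parental and 0.93% in persister libraries, and its log2 fold change of −0.78 did not pass the test (adjusted p = 0.571). ADAM12-202 held 88.3% of the ADAM12 counts in parental and 91.5% in persister libraries, so that most of the rise in counts lay in this transcript of the membrane-spanning form. The shares are not scaled for length, which is 7938 bases for ADAM12-202 and 3313 for ADAM12-201. Another coding transcript, ADAM12-203, with a coding length of 2718 bases, was also higher, by 1.56 (adjusted p = 0.00619).

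The abundant sheddases moved little. ADAM10, the α-secretase that also cleaves Notch and E-cadherin, had 295, 276 and 296 CPM in parental and 395, 380 and 379 CPM in persister libraries. All persister values were above all parental ones, with a log2 fold change of 0.41 ± 0.0387 (adjusted p = 3.63e-06). ADAM17, which releases TNF and several EGFR ligands, had 146, 136 and 142 CPM in parental and 152, 152 and 151 CPM in persister libraries. The groups did not overlap, but the log2 fold change of 0.096 ± 0.038 did not pass the limit (adjusted p = 0.0435).

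ADAM9, a broadly expressed sheddase, was the ADAM with the highest length-scaled level (208 TPM in parental and 238 TPM in persister cells), with 437, 397 and 419 CPM in parental and 465, 478 and 440 CPM in persister libraries. The lowest persister value was just above the highest parental one, and the log2 fold change of 0.14 ± 0.0447 did not pass (adjusted p = 0.0152), although it did with DESeq2 and without a filter (0.15 in both) and without parental replicate 1 (0.18). ADAM15, which carries an integrin-binding site, had 114, 145 and 135 CPM in parental and 102, 101 and 113 CPM in persister libraries. Parental replicate 1 lay next to the persister values, and the log2 fold change was −0.32 ± 0.0783 with an adjusted p of 0.00379. The call was lost without parental replicate 3 (−0.30), persister replicate 1 (−0.30) or persister replicate 2 (−0.29). ADAM19 was higher by 0.27, while ADAM8, ADAM21 and ADAM28 did not pass the test, at 0.10, 0.26 and −0.40.

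Per length, the 12 catalytic ADAMs summed to 489 ± 7.24 TPM in parental and 560 ± 15.5 TPM in persister libraries. ADAM9 held 42.5% of this sum in both conditions, and ADAM10 19.6% in parental and 23.8% in persister cells. The ratio of ADAM10 to ADAM17 in TPM was 1.40, 1.41 and 1.44 in parental and 1.84, 1.77 and 1.78 in persister libraries. The level of this ratio is less sure, since transcripts with a known length held 16157 of the 28822 ADAM17 counts. ADAM17 overlaps IAH1 on the opposite strand, which had 455 to 739 counts per library against 4425 to 5151 for ADAM17.

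Of the 8 ADAMs without a catalytic motif, which serve as binding or adhesion proteins mainly of brain and germ cells, 4 were tested and 3 were higher. Over all tested genes 28.7% were higher, and whether these ADAMs differ from them was not tested. ADAM11, a synaptic protein, had 0.552, 0.558 and 0.861 CPM in parental and 1.68, 1.30 and 1.84 CPM in persister libraries, a log2 fold change of 1.29 ± 0.244 (adjusted p = 7.24e-04). The groups did not overlap, although counts were only 19 to 63 per library. ADAM22 and ADAM23, receptors of the LGI proteins of synapses, were higher by 0.27 and 0.69, the call of ADAM22 being lost without parental replicate 3 (0.25) or persister replicate 1 (0.27) or 2 (0.26), and ADAM32 did not pass the test (0.36). The pseudogenes ADAM5 and ADAM6 had a count of 0 in every library.

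The secreted MMPs were sparse. Of 16 genes, 6 had a count of 0 throughout and 5 more were under the filter. Of the 5 tested, MMP19 was higher and MMP7, MMP2 and MMP28 were lower, beside 28.7% higher and 28.1% lower among all tested genes. Whether the secreted MMPs differ from all tested genes was not tested. MMP7 (matrilysin), a small MMP of glandular epithelia that cleaves matrix proteins and E-cadherin, had 34, 40 and 33 counts in parental and 0, 2 and 1 counts in persister libraries. It was detected in each parental library and nearly absent from each persister library. Scaled for depth, the summed counts of 107 and 3 gave a ratio of parental to persister of 33.1, with a 95% interval of 11 to 163 that covers counting error only. The fitted log2 fold change was −4.89 ± 0.473 with an adjusted p of 4.55e-06, at mean levels of 1.05 ± 0.110 CPM in parental and 0.0309 ± 0.0318 CPM in persister libraries. The filter passed MMP7 through its parental libraries alone.

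MMP2 (gelatinase A), the target of the activation by MMP14, had 20, 23 and 13 counts in parental and 4, 6 and 6 counts in persister libraries. The groups did not overlap, with a log2 fold change of −1.68 ± 0.370 (adjusted p = 0.00201). It too passed the filter through the parental libraries alone, and the call was lost with DESeq2 (−1.70) and without parental replicate 2 (−1.50) or persister replicate 1 (−1.56). MMP19, which cleaves basement membrane proteins, had 0.930, 0.970 and 0.772 CPM in parental and 1.34, 1.65 and 1.52 CPM in persister libraries. All persister values were higher, with a log2 fold change of 0.75 ± 0.195 (adjusted p = 0.0054), and the call was lost with DESeq2 (0.76) and without parental replicate 1 (0.79), 2 (0.82) or 3 (0.66) or persister replicate 2 (0.68) or 3 (0.75). MMP19 overlaps the pseudogene TMEM198B on the opposite strand, with 301 to 538 counts per library. MMP28 was lower, with a log2 fold change of −0.67, and this call was lost with DESeq2 (−0.67), with counts summed from transcripts (−0.14) and without parental replicate 2 (−0.65) or 3 (−0.67) or persister replicate 1 (−0.63) or 2 (−0.54). MMP11 (−0.52) did not pass.

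The interstitial collagenase MMP1 had a count of 0 in all 6 libraries. Taken alone, a library with a count of 0 allows a mean of up to 3 counts, as a 95% limit that covers counting error only. MMP9 (gelatinase B) had 2, 2 and 0 counts in parental and 7, 11 and 5 counts in persister libraries, too few for the filter. All persister counts of MMP9 were above all parental ones. MMP1 and MMP7 belong to a cluster of 9 MMP genes at 11q22, of which 5 had a count of 0 throughout, 3 had too few counts and only MMP7 could be tested.

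The ADAMTS proteases held the largest group of rises. Of 19 genes, 13 were tested, 8 were higher, all by more than 2-fold, and ADAMTS13 alone was lower. Those were 61.5% higher and 7.69% lower, beside 28.7% and 28.1% of all tested genes. A change above 2-fold was called for 61.5%, beside 11.6% of all tested genes. The median log2 fold change was 1.51. ADAMTS12, which cleaves cartilage oligomeric matrix protein (COMP), had the highest length-scaled level of the class (46.0 TPM in parental and 101 TPM in persister cells), with 194, 182 and 195 CPM in parental and 408, 398 and 405 CPM in persister libraries. The replicates were close together and far from the other group, at means of 190 ± 7.04 and 404 ± 4.93 CPM, with a log2 fold change of 1.08 ± 0.0376 (adjusted p = 1.49e-09). The gene lies at chr5:33523535-33892019 on the minus strand, and ADAMTS12-203, which encodes the full protease, held 97.8% of its counts in parental and 98.9% in persister libraries.

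Another 3 of the risen genes are proteoglycanases, which cut versican and aggrecan. ADAMTS9 (chr3:64515654-64688000) had 1.37, 1.44 and 1.04 CPM in parental and 11.5, 10.2 and 10.2 CPM in persister libraries. It was higher in each persister library, 8.30-fold in the means, with a log2 fold change of 3.05 ± 0.126 (adjusted p = 5.79e-09). ADAMTS15 (chr11:130448645-130476645) had 2.88, 3.26 and 3.21 CPM in parental and 16.1, 16.2 and 17.6 CPM in persister libraries, a log2 fold change of 2.42 ± 0.0861 with an adjusted p of 1.82e-09. ADAMTS1 (chr21:26835755-26845409) had 0.581, 0.588 and 0.802 CPM in parental and 3.70, 3.15 and 3.75 CPM in persister libraries, a log2 fold change of 2.42 ± 0.182 with an adjusted p of 6.21e-07. In none of the 3 genes did the groups overlap, which for genes that passed the test is no separate result. These are also the 3 risen genes whose zinc-binding stretch lacked the glycine in the motif search. Of the 7 proteoglycanase genes, 5 were tested, and ADAMTS4 (0.28) and ADAMTS20 (−0.46) did not pass.

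ADAMTS3, a procollagen N-propeptidase that also processes the lymphatic growth factor VEGFC, had 2.64, 2.44 and 2.35 CPM in parental and 8.80, 8.51 and 9.74 CPM in persister libraries. All persister values were over 3 times the parental ones, with a log2 fold change of 1.86 ± 0.103 (adjusted p = 5.61e-08). ADAMTS14, of the same group, did not pass (0.46). The remaining rises were at low levels. ADAMTS6 had 0.785, 1.03 and 0.713 CPM in parental and 2.77, 2.51 and 2.75 CPM in persister libraries (log2 fold change 1.66 ± 0.182, adjusted p = 1.21e-05). ADAMTS17 had 0.581, 0.558 and 0.356 CPM in parental and 1.06, 1.72 and 1.49 CPM in persister libraries (1.51 ± 0.272, adjusted p = 5.20e-04). ADAMTS7, the other COMP-cleaving member, had 0.552, 0.617 and 0.891 CPM in parental and 2.09, 2.19 and 2.22 CPM in persister libraries (1.66 ± 0.206, adjusted p = 3.31e-05). In each of these genes every persister library was above every parental one, which again is no separate result. ADAMTS7 overlaps the far more abundant MORF4L1 on the opposite strand, with 9392 to 10965 counts per library.

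ADAMTS13, which cuts von Willebrand factor, moved the other way, at 3.78, 4.23 and 3.56 CPM in parental and 2.36, 1.91 and 2.08 CPM in persister libraries. The persister values were all lower, with a log2 fold change of −0.87 ± 0.135 (adjusted p = 1.79e-04). It overlaps REXO4 on the opposite strand, with 1203 to 1472 counts per library.

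Per length, the ADAMTS sum was 58.7, 57.9 and 59.2 TPM in parental and 129, 120 and 125 TPM in persister libraries, a 2.13-fold ratio of the means. ADAMTS12 alone held 78.5% of the sum in parental and 80.6% in persister libraries. Most of the rise in the sum was thus that of ADAMTS12, while the steeper relative rises of ADAMTS9, ADAMTS15 and ADAMTS1 started from 0.385, 1.06 and 0.274 TPM and reached 3.16, 5.87 and 1.47 TPM. All secreted proteases together summed to 66.9 ± 0.484 TPM in parental and 130 ± 4.13 TPM in persister libraries, and all membrane-bound proteases to 537 ± 10.8 and 634 ± 14.2 TPM. The sums have no test, since their members were chosen with results known.

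Of 5 ADAMTSL genes, which encode matrix proteins that bind fibrillin and related fibres, 4 were tested. Only ADAMTSL5 was higher (25.0%, beside 28.7% of all tested genes). It had 8.78, 11.8 and 10.8 CPM in parental and 14.4, 14.7 and 14.1 CPM in persister libraries, with no overlap and a log2 fold change of 0.46 ± 0.0962 (adjusted p = 0.00136). ADAMTSL4 was the most abundant of the class, with 86.5% of its summed TPM in parental and 84.9% in persister libraries, and did not pass the test (0.12), nor did ADAMTSL2 (0.89) and ADAMTSL3 (−0.22). ADAMTSL4 overlaps MCL1 on the opposite strand, which had 5292 to 8202 counts per library against 4770 to 5775 for ADAMTSL4.

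All 4 TIMPs changed, beside 56.8% of all tested genes, and TIMP1 went against the other 3. TIMP3, which binds to the matrix and inhibits ADAM17 and several ADAMTS proteases as well as MMPs, had 140, 147 and 147 CPM in parental and 354, 364 and 361 CPM in persister libraries. It rose in all persister libraries, with means of 145 ± 4.48 and 360 ± 5.48 CPM, a log2 fold change of 1.31 ± 0.0369 (adjusted p = 3.31e-10). TIMP2, which inhibits MMPs and also forms the complex in which MMP14 activates pro-MMP2, had 272, 280 and 271 CPM in parental and 473, 510 and 498 CPM in persister libraries. It was higher in all 3, with a log2 fold change of 0.85 ± 0.0381 (adjusted p = 1.12e-08). TIMP4 had 7.18, 7.23 and 6.53 CPM in parental and 12.1, 11.9 and 13.6 CPM in persister libraries, with a log2 fold change of 0.85 ± 0.0833 (adjusted p = 5.07e-06). TIMP1, which is induced by many growth factors and inhibits most secreted MMPs, had 28.7, 32.4 and 31.4 CPM in parental and 17.3, 19.3 and 18.3 CPM in persister libraries. Every persister value was lower, with a log2 fold change of −0.75 ± 0.0636 (adjusted p = 1.64e-06).

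Per length, the TIMPs summed to 305 ± 12.1 TPM in parental and 521 ± 4.15 TPM in persister libraries. TIMP1 held 24.7% of the sum in parental and 8.81% in persister libraries, TIMP2 50.4% and 55.1%, and TIMP3 21.1% and 31.8%. The ratio of TIMP2 to TIMP1 in TPM was 2.17, 1.99 and 1.98 in parental and 6.35, 6.13 and 6.30 in persister libraries. Set against its targets, the ratio of TIMP3 to ADAM17 went from 0.948 ± 0.0599 to 2.23 ± 0.0349, the ratio of TIMP2 to MMP14 from 6.96 ± 0.393 to 7.96 ± 0.105 and the ratio of the TIMP sum to the MMP sum from 5.48 ± 0.351 to 6.60 ± 0.0898. These are ratios of transcripts and have no test. The level of the ratio to ADAM17 is less sure, since the length of ADAM17 rests on part of its transcripts.

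**Figure D3:**
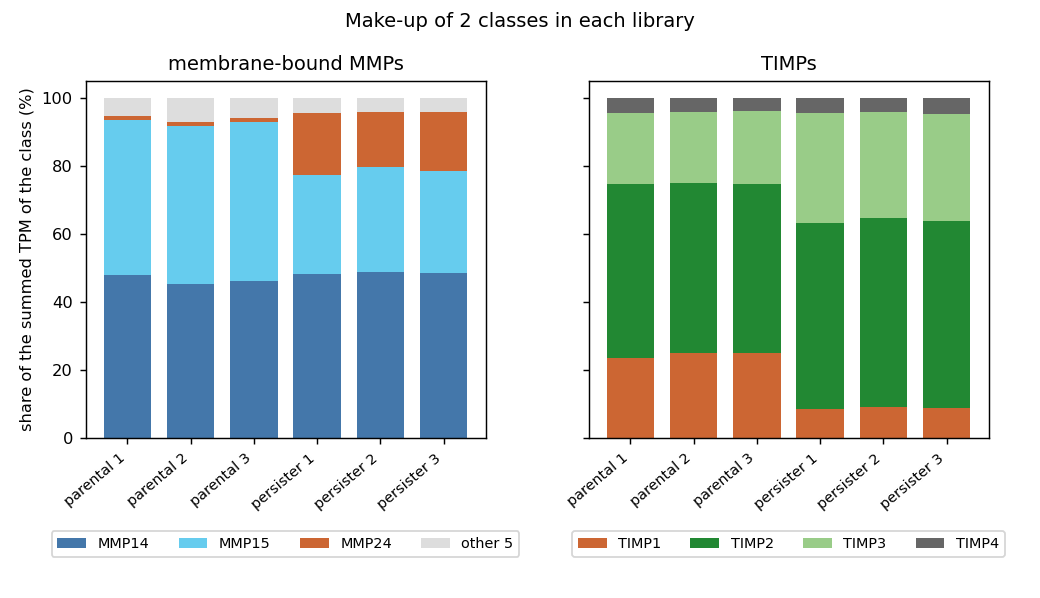
Stacked bars give the share of each gene in the summed TPM (y axis, percent) of the 8 membrane-bound MMPs (left) and the 4 TIMPs (right) in each library. MMP24 takes 16.2% to 18.1% of the first class in persister libraries, and TIMP1 shrinks from at least 23.6% to at most 9.06% of the second.

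At the level of transcripts, 457 were annotated to the members, 106 were tested and 17 changed, 15 higher and 2 lower, in 15 genes. The share was 16% of the members' tested transcripts, beside 7.80% over the whole table, where 4252 of 54499 passed. The 2 lower transcripts were MMP7-201 and TIMP1-201. For MMP24, TIMP3, TIMP4 and ADAMTS15 a single transcript held 100% of the gene's counts, and MMP14-201 held 93.3% in parental and 92.7% in persister libraries. The counts of ADAM10 were split between ADAM10-201, which encodes the protease, and ADAM10-202, a transcript annotated to nonsense-mediated decay, at 45.5% and 38.2% in parental and 45.2% and 38.7% in persister libraries, and both were higher (0.38 and 0.40). These shares are not scaled for length, which is 11158 bases for ADAM10-201 and 2418 for ADAM10-202, so they are not shares of molecules. The number of changed transcripts fell to 9 without parental replicate 2, persister replicate 1 or persister replicate 3, and to 8 without parental replicate 3 or persister replicate 2.

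The promoter, taken as the 250 bases before the start given by RefSeq on GRCh38.p14, was matched for 44 of the 74 genes, 30 of them tested. It is shown, 5′ to 3′ on the gene's strand, for the genes with the largest rise and the largest fall and for the most abundant ADAMTS gene, and their most-counted transcripts begin at the RefSeq start. Capitals mark matches on either strand to TGANTCA (AP-1), TGACGTCA (CRE), GGAATG (TEAD) and GGGCGG (SP1), none of which contains another.
MMP24: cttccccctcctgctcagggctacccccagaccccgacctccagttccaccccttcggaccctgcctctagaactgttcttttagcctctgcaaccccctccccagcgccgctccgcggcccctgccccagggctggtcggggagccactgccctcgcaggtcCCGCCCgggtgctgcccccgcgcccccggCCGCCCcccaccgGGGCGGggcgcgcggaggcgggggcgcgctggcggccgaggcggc
MMP7: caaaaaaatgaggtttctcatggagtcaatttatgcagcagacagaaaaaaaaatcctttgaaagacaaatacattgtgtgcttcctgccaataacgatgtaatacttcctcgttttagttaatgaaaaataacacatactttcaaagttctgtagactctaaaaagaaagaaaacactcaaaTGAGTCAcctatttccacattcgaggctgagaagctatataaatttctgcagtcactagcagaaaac
ADAMTS12: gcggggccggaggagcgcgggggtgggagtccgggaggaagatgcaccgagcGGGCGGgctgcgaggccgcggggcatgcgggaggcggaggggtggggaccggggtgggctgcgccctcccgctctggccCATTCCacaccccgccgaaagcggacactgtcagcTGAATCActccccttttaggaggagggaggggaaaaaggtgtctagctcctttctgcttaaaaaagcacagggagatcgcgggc
These are chr20:35226440-35226689 (plus strand), chr11:102530748-102530997 (minus) and chr5:33891991-33892240 (minus). The MMP7 promoter held an AP-1 match whose first base is at −67 from the start, ADAMTS12 held an AP-1 match at −84, a TEAD match at −119 and an SP1 match at −198, and MMP24 held matches to SP1 and to no other motif of the 4, at −87, −58 and −45. AP-1 was matched in 4 of the 44 members' promoters against 6.57% of all 35116 promoters, CRE in 0 against 1.65%, TEAD in 4 against 11.9% and SP1 in 30 against 42.6%. Each member was counted once by symbol, whereas the 35116 promoters are all entries for genes of any kind, so the 2 sets are not alike. A match is a stretch of letters and not a shown binding site.

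The genes that activate, place or otherwise restrain these proteases were listed separately, 29 in all. Of 27 tested, 13 were higher and 9 lower (48.1% and 33.3%, beside 28.7% and 28.1% of all tested genes), with a median log2 fold change of 0.10. The plasminogen system makes plasmin, which activates several pro-MMPs, and both plasminogen activators in the list fell. PLAT (tPA) had 45.5, 45.7 and 45.7 CPM in parental and 6.58, 6.42 and 6.85 CPM in persister libraries, a log2 fold change of −2.78 ± 0.0541 with an adjusted p of 2.65e-11. PLAU (uPA) had 154, 159 and 154 CPM in parental and 86.3, 84.9 and 88.3 CPM in persister libraries, a log2 fold change of −0.85 ± 0.0369 with an adjusted p of 8.70e-09. The replicates of both genes were close together and the groups far apart. SERPINB2, an inhibitor of the plasminogen activators, was low, with 4, 3 and 9 counts in parental and 30, 27 and 32 counts in persister libraries, and rose by a log2 fold change of 2.55 ± 0.361 (adjusted p = 8.68e-05). It passed the filter through the persister libraries alone. SERPINE2, a far more abundant inhibitor of the same activators that was chosen after its values were seen, was lower, at means of 208 and 188 CPM (log2 fold change −0.15, adjusted p = 0.00275).

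RECK, a membrane-anchored inhibitor of MMP2, MMP9 and MMP14, had 2.15, 2.47 and 2.38 CPM in parental and 5.48, 5.43 and 6.32 CPM in persister libraries. It was higher in each of them, by a log2 fold change of 1.30 ± 0.118 (adjusted p = 2.80e-06). PAPLN, a matrix protein related to the ADAMTS family, had 5, 6 and 3 counts in parental and 13, 10 and 13 in persister libraries (1.45 ± 0.396, adjusted p = 0.00745), having passed the filter through the persister libraries alone. Its call was lost with DESeq2 (1.48), without a filter (1.45), with the replicate number as a block (1.45) and without any of the 6 libraries (1.22 to 1.66).

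Among the partners of ADAM10 and ADAM17, changes went both ways. RHBDF2 (iRhom2), which carries ADAM17 to the cell surface, had 22, 27.2 and 23.6 CPM in parental and 31.1, 30.7 and 30.1 CPM in persister libraries, and was higher by 0.34 ± 0.0714 (adjusted p = 0.00158). Its paralog RHBDF1 (iRhom1) was lower by a log2 fold change of −0.24 (adjusted p = 0.00777), and FRMD8, which stabilizes the iRhoms, did not pass (−0.035). The 6 TspanC8 tetraspanins, which guide ADAM10, ran from −0.52 to 1.00, with 3 higher and 2 lower (50.0% and 33.3%, beside 28.7% and 28.1% of all tested genes). The top value was that of TSPAN33, with means of 6.13 and 12.2 CPM. RHBDF1, FRMD8 and TSPAN33 were chosen after their values were seen. FURIN, a convertase that removes the propeptide of many members, had 82.3, 103 and 98.3 CPM in parental and 75.3, 79.2 and 80.2 CPM in persister libraries, and was lower by a log2 fold change of −0.27 ± 0.0726 (adjusted p = 0.00609). That call was lost with counts summed from transcripts (−0.28) and without parental replicate 2 (−0.21) or 3 (−0.25) or persister replicate 1 (−0.25), 2 (−0.28) or 3 (−0.29), whereas 2 of the other 3 convertases were higher, up to 0.63. BSG (CD147), which induces MMPs in neighbouring cells, did not pass, at 573, 604 and 568 CPM in parental and 595, 646 and 629 CPM in persister libraries (0.10 ± 0.0411, adjusted p = 0.0496).

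**Figure D4:**
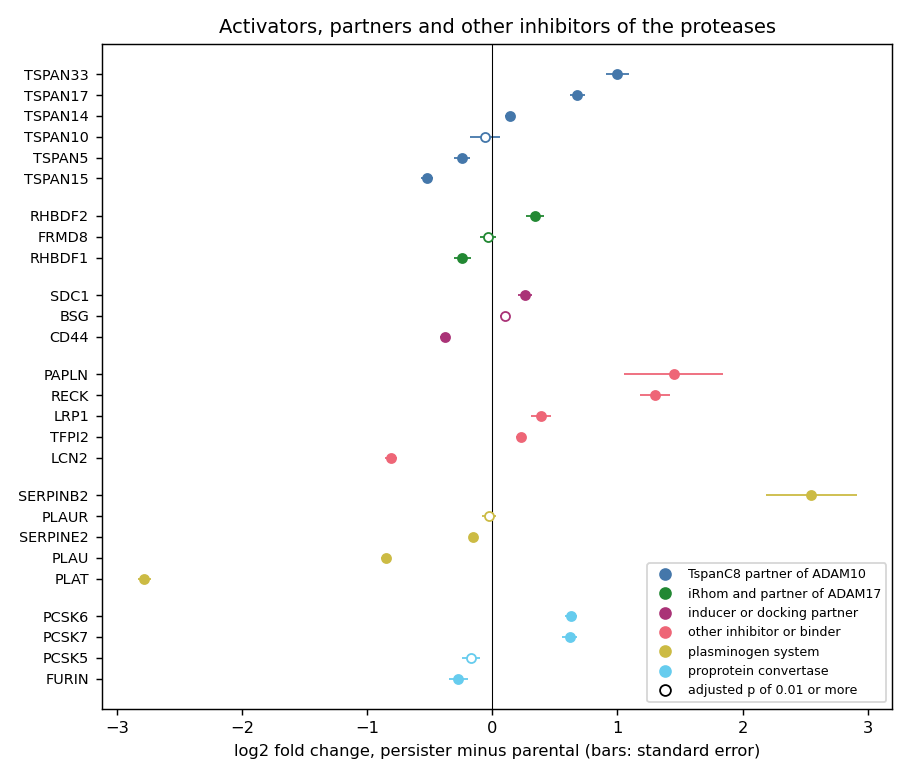
The log2 fold change of 26 of the 27 tested regulators (x axis, persister minus parental, bars for the standard error) is grouped by role, with filled points for an adjusted p under 0.01. SERPINB2 at 2.55 and PLAT at −2.78 lie at opposite ends of the plasminogen genes drawn.

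Several of these proteases and inhibitors are abundant in fibroblasts and leukocytes, so markers were read beside them. All 5 epithelial markers were detected in each library, summing to 5574 to 5985 CPM in parental and 3331 to 3499 CPM in persister libraries. The fall of this sum lay mainly in the keratins KRT8, KRT18 and KRT19 (log2 fold changes −0.80, −0.92 and −1.03), while EPCAM was lower by a log2 fold change of −0.18 and CDH1 (E-cadherin) was higher by 0.60. The 5 fibroblast markers summed to 10.4 to 11 CPM in parental and 27.4 to 30.8 CPM in persister libraries, nearly all of it from COL1A1. Both fibroblast markers that could be tested were higher, COL1A1 by a log2 fold change of 1.47 and PDGFRB by 1.52 (adjusted p = 0.00232). PDGFRB had 10, 11 and 16 counts in parental and 28, 22 and 50 in persister libraries. COL1A2, DCN and LUM had at most 6, 4 and 1 counts in a library. Of 3 leukocyte markers 2 were detected, summing to 74.3 to 76.1 CPM in parental and 19.5 to 22.5 CPM in persister libraries, mostly from CD68, with PTPRC at 3 to 12 counts and CD3E at 0. The 3 endothelial markers summed to 8.05 to 8.82 CPM in parental and 3.25 to 3.80 CPM in persister libraries, with PECAM1 falling from 4.37 to 0.214 CPM in the means, CDH5 at 3.82 and 2.98 CPM without passing the test, and VWF at 0.254 and 0.352 CPM, too low to be tested. The part of these shifts in the results above was not tested.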

How the data were processed

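Groups and replicate numbers came from the sample labels, and drug dose and culture numbers from the study's methods. The authors enriched poly-A RNA, pseudoaligned reads with Kallisto 0.46.1 to Ensembl transcripts of GRCh38 and deposited the estimated counts, rounded and not normalized, in a table of genes and a table of transcripts. How surely Kallisto placed a read among like transcripts was not modelled. Gene counts were filtered with filterByExpr, TMM-normalized and compared with edgeR 4.0.16 (glmQLFit and glmQLFTest, no block) in R 4.3.3, and p-values were adjusted by Benjamini-Hochberg over all genes tested, with a limit of 0.01. A standard error is the log2 fold change divided by the square root of F. TPM was rebuilt from gene counts and a mean GENCODE 44 transcript length per condition, weighted by transcript counts. ADAM17, ADAM32, ADAMTS13, MMP11 and MMP28 have transcripts absent from that release, so their TPM is less sure. In simulated counts for 14472 genes, 93.5% of the 200 genes changed by a log2 fold change of 1 were recovered, and 65.5% in 53344 transcripts. Every simulated gene or transcript had the same dispersion of 0.01, and errors of read placement were left out. In the real data 56.8% of genes changed, so these rates check the fit and do not give its power here. The members, the gene lists and the rule for named genes were chosen with earlier results of these data known. Named are 14 family members fixed by symbol and, in each class, changed genes with a log2 fold change of 1 or more or the 2 smallest p-values in a direction. Alternatives were DESeq2 1.42.0, limma-voom 3.58.1, other normalizations, filters and limits, counts summed from transcripts, a replicate block and each library left out. A regulator that the rule selects is counted but not reported here.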

Additional observations from a re-analysis of the deposited data

How the results depend on the processing

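With a fold change above 2 also required, 15 members changed (13 higher, 2 lower), 3 of them membrane-bound proteases, and 5 regulators changed. Leaving out each library in turn gave 3 to 7 lower members and 8 to 13 changed member transcripts. Same-numbered parental and persister libraries deviated together with correlations of 0.12, 0.024 and 0.022, and differently numbered ones with −0.12 to 0.097. With 3 libraries per group, these values cannot decide whether the numbers pair the samples. Over all genes, 8671 changed with the replicate number as a block, in place of 8307. With the replicate number as a block 29 members changed, as without it, and 6 transcripts in place of 17. The log2 fold change of MMP15, which passed in no setting, ran from −0.12 to 0.024 over all alternatives, turning positive without parental replicate 2 (0.024) and persister replicate 1 (0.011). The cause was not tested. Of 611 fold changes recomputed for 41 named or changed genes, 564 kept their direction and side of the limit, 42 lost the call, 3 gained it and 2 changed sign, and 31 genes kept both in each of the up to 15 alternatives run. Built from transcript counts, an alternative chosen after seeing the data, the summed TPM ratio of the catalytic ADAMs was 1.21 in place of 1.14 and that of the membrane-bound proteases 1.24 in place of 1.18. Low counts limit several calls, and MMP2, MMP7, MMP19, ADAMTS17, PAPLN and SERPINB2 had under 60 counts in every library.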

Other observations

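ADAMTS8, a further ADAMTS protease under the filter, was chosen after its values were seen. It had 0, 1 and 1 counts in parental and 7, 5 and 7 counts in persister libraries. Scaled for depth, the ratio of parental to persister was 0.0978, with a 95% interval of 0.011 to 0.405 that covers counting error only. MMP13, a collagenase of the 11q22 cluster, had 2, 1 and 2 counts in parental and 0 in each persister library. The retained-intron transcript ADAMTS16-202, of a gene that did not change as a whole (log2 fold change −0.12), had 17, 15 and 17 counts in parental and 65, 61 and 75 counts in persister libraries, and its share of the ADAMTS16 counts was 3.70% and 17.7% (log2 fold change 2.11, adjusted p = 0.00342 over transcripts).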
